A study of Danio rerio with 2 samples.

Results

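The genes described here encode the proteins of the cytosolic ribosome. They were taken by symbol, as every feature whose symbol starts with *rpl* or *rps* and a digit or with *rplp* and a digit, together with *rpsa*, and without the *rps6k* kinases. This gave 84 of the 36355 features, 48 named for the large subunit and 36 for the small subunit. Of these, 83 symbols were found in a RefSeq table of zebrafish genes, and *rplp2l* was matched to no entry.

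The ribosome translates mRNA into protein. Its small subunit reads the mRNA and its large subunit joins the amino acids, and each consists of rRNA covered by many small proteins, nearly all of them present once per particle. The mRNAs of these proteins are among the most abundant in animal cells, and in vertebrates their translation is regulated together through a shared pyrimidine-rich start. Cells that secrete much protein, such as osteoblasts and fibroblasts that lay down matrix, depend on a large supply of ribosomes.

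The study profiled single cells of the adult zebrafish jaw joint by droplet sequencing of mRNA 3′ ends, in which each captured molecule counts as 1 unique molecular identifier (UMI). All cells came from 50 pooled joints of 3-month-old fish carrying both the *sox10:DsRed* and the *trps1:eGFP* transgene. Live cells were sorted into a *sox10:DsRed*-enriched library (DsRed-positive, with or without GFP) and a *trps1:eGFP*-enriched library (GFP-positive). Each library thus holds cells selected by the fluorescence of its transgene, and there was 1 library per sort. With no replicate library no test across samples could be run, every interval below covers counting error only, and a cell class found in 1 library cannot be told apart from that library.

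Of 462 barcodes in the *sox10:DsRed*-enriched and 4876 in the *trps1:eGFP*-enriched library, 242 and 3919 had 500 to 2000 genes and at most 5% of UMIs on mitochondrial genes. The median kept cell had 2588 UMIs in the first and 3648 in the second. The libraries shared 16 barcodes, 2 of them among kept cells. Cells were clustered without the ribosomal protein genes. Clusters were named as "-like" from marker genes or, where too few markers were present, after leading genes. A subcluster whose markers were of another lineage than its parent cluster was also named after leading genes. Epithelial-like and endothelial-like cells were set apart, which left 3770 joint cells.

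Ribosomal protein genes took 3527038 of the 14642706 UMIs of the joint cells, or 24.1%. No joint cell was without them, and the share ran from 2.88% in the lowest cell to 54.8% in the highest. Of the 84 members, 76 were at 1000 or more CPM (UMIs of a gene scaled to the same total in each group of cells), and 53 stood among the 100 genes with most UMIs. The median member was at 2800 CPM and was found in 97.9% of joint cells. Because each transcript is counted at its 3′ end, CPM was compared between genes without scaling to length.

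The 10 most abundant members held 23.3% of the ribosomal protein UMIs. *rps2*, a small-subunit protein near the channel through which mRNA enters, led with 9305 CPM over all joint cells, 10575 in the *sox10:DsRed*-enriched library and 9230 in the *trps1:eGFP*-enriched library. *rplp1*, an acidic protein of the stalk that recruits elongation factors, followed at 9216 and 7193 CPM. *rplp0*, which anchors that stalk, was at 6348 and 4791 CPM. The list also held the large-subunit proteins *rpl37*, *rpl36*, *rpl39* and *rpl32*, with *rpl37* at 8030 and 5862 CPM and *rpl39*, which lines the exit tunnel, at 7217 and 4630 CPM. On the small subunit *rps20*, *rps19* and *rps15a* completed the list, *rps20* at 7217 and 5130 CPM and *rps19*, a gene whose loss causes Diamond-Blackfan anaemia in humans, at 5747 and 4533 CPM. All 10 were higher in the *sox10:DsRed*-enriched library, whose joint cells gave 31.8% of their UMIs to the members against 23.6% in the other.

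**Figure D1:**
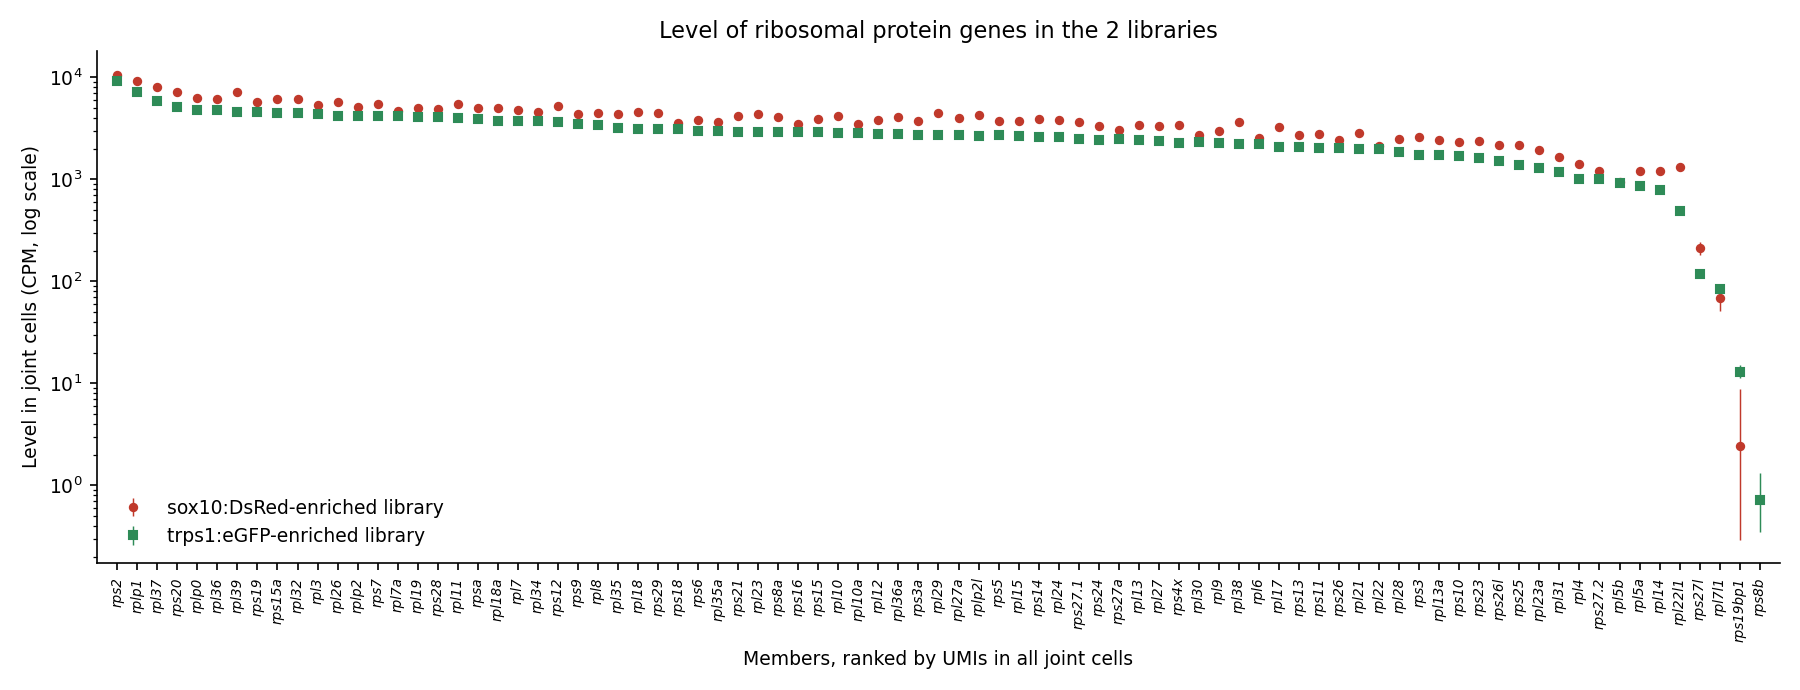
Level of 83 of the 84 members in the joint cells of the 2 libraries, in CPM on a log axis, ranked by UMIs over both, with exact Poisson 95% intervals; *rps8b* had no UMI in the *sox10:DsRed*-enriched library and has no point there. Levels fall slowly from *rps2* to *rpl14* and then steeply over *rpl22l1*, *rps27l*, *rpl7l1*, *rps19bp1* and *rps8b*.

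At the low end, 2 rows chosen by the rule carried almost no signal. *rps19bp1*, which encodes a protein that binds Rps19 and is not itself a ribosomal protein, had 182 UMIs (12.4 CPM). *rps8b*, a copy of the small-subunit gene *rps8a*, had 10 UMIs (0.683 CPM), whereas *rps8a* was at 3001 CPM. Neither reached a mean of 50 CPM in any comparison of classes, so the comparisons below cover the other 82. Where gene copies are nearly identical, reads that map to several places are not counted, and the split between copies is uncertain to that extent.

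Some ribosomal components fall outside the rule because of their symbols. *RPL37A*, a large-subunit protein written in capitals in the annotation, was at 4203 CPM in the *sox10:DsRed*-enriched and 3206 CPM in the *trps1:eGFP*-enriched library. *faua*, a ubiquitin-like protein fused to a small-subunit protein, was at 2999 and 2045 CPM. *rack1*, a scaffold on the small subunit, was at 2650 and 1834 CPM. Each of these 3 was lowest in the *pck1* cluster and highest in the pre-osteoblast-like cells of the *trps1:eGFP*-enriched library. These were also the classes with the lowest and highest summed share of members in that library. The other copy, *faub*, did not follow, at only 10.6 CPM over all joint cells. In that library it was highest in superficial chondrocyte-like cells (34.0 CPM) and had no UMI in endothelial-like cells. *RPL37A*, *faua* and *faub* were added to the named genes after their values had been seen.

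The share of UMIs on ribosomal protein genes differed 2.22-fold between the classes of the *trps1:eGFP*-enriched library. Bone-forming cells were at the top. Pre-osteoblast-like cells gave 34.0% of their summed UMIs to the members (95% binomial interval, Clopper-Pearson, 33.8 to 34.2, n = 34 cells) and osteoblast-like cells 32.3% (32.2 to 32.4, n = 175). The *coch* cluster at 32.1% (n = 109) and the *ctslb* cluster at 31.1% (n = 149) lay close to them.

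The middle of the order held clusters without a cell type name beside ligamentocyte-like, endothelial-like and epithelial-like cells. The *fgl1* cluster was at 27.8% (n = 228), ligamentocyte-like cells, marked by the tendon genes *scxa* and *tnmd*, at 26.8% (n = 370), endothelial-like cells at 24.9% (n = 25) and the *hspb1* cluster at 24.5% (n = 674). The *ccl19a.1* cluster followed at 21.9% (n = 90) and epithelial-like cells at 20.7% (n = 365).

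At the bottom were the *glis1b* cluster at 20.1% (n = 1013), superficial chondrocyte-like cells, marked by the lubricin gene *prg4b*, at 19.9% (n = 104), dermal fibroblast-like cells at 18.4% (n = 342) and the *pck1* cluster at 15.3% (n = 235). Single cells of the lowest and highest classes overlapped, but their quartile ranges did not: the middle 50% of *pck1* cells lay between 11.7% and 17.5%, that of osteoblast-like cells between 25.1% and 36.0%, and that of pre-osteoblast-like cells between 28.3% and 37.4%. Neighbours in the order overlapped, and the median osteoblast-like cell (31.9%), for example, lay within the quartiles of the *ctslb* cluster, whose median was 31.4%.

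In the *sox10:DsRed*-enriched library the bone-forming cells again stood highest. Pre-osteoblast-like cells were at 40.7% (40.5 to 41.0, n = 21) and osteoblast-like cells at 38.7% (38.5 to 38.9, n = 15). Chondrocyte-like cells, which express *col2a1a* and *matn1*, were at 27.9% (27.8 to 28.0, n = 140). Within them a *tnxba* subcluster of 86 cells was at 29.1% and a *matn1* subcluster of 54 cells at 26.2%. A small cluster led by *ihha* and *chad* was at 24.7% (n = 16), with the middle 50% of its cells spread from 7.02% to 29.1%. This subcluster of the chondrocyte cluster carried 3 markers of the pre-osteoblast list, *mmp13b*, *nfe2* and *hpse*. It was not counted among the bone-forming cells because its parent cluster was of another lineage. In each library osteoblast-like cells were below pre-osteoblast-like cells in the summed share, by 2.05 percentage points in the first and 1.73 in the second. In the median cell that order held in the *trps1:eGFP*-enriched library, 31.9% against 32.6%, and turned in the *sox10:DsRed*-enriched library, 38.8% against 37.8%.

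The glia-like cells of the *sox10:DsRed*-enriched library were at 29.9% summed over 44 cells, but they were a mixed group. The 22 cells with at least 5 UMIs of the glia markers (*mbpa*, *mpz*, *plp1b* and others) gave 19.5% of their UMIs to the members (5253 of 26908 UMIs). The other 22 cells gave 35.2% (18174 of 51568 UMIs). The value of the whole cluster is therefore not that of the cells that carry glial transcripts, a split made after the data had been seen.

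**Figure D2:**
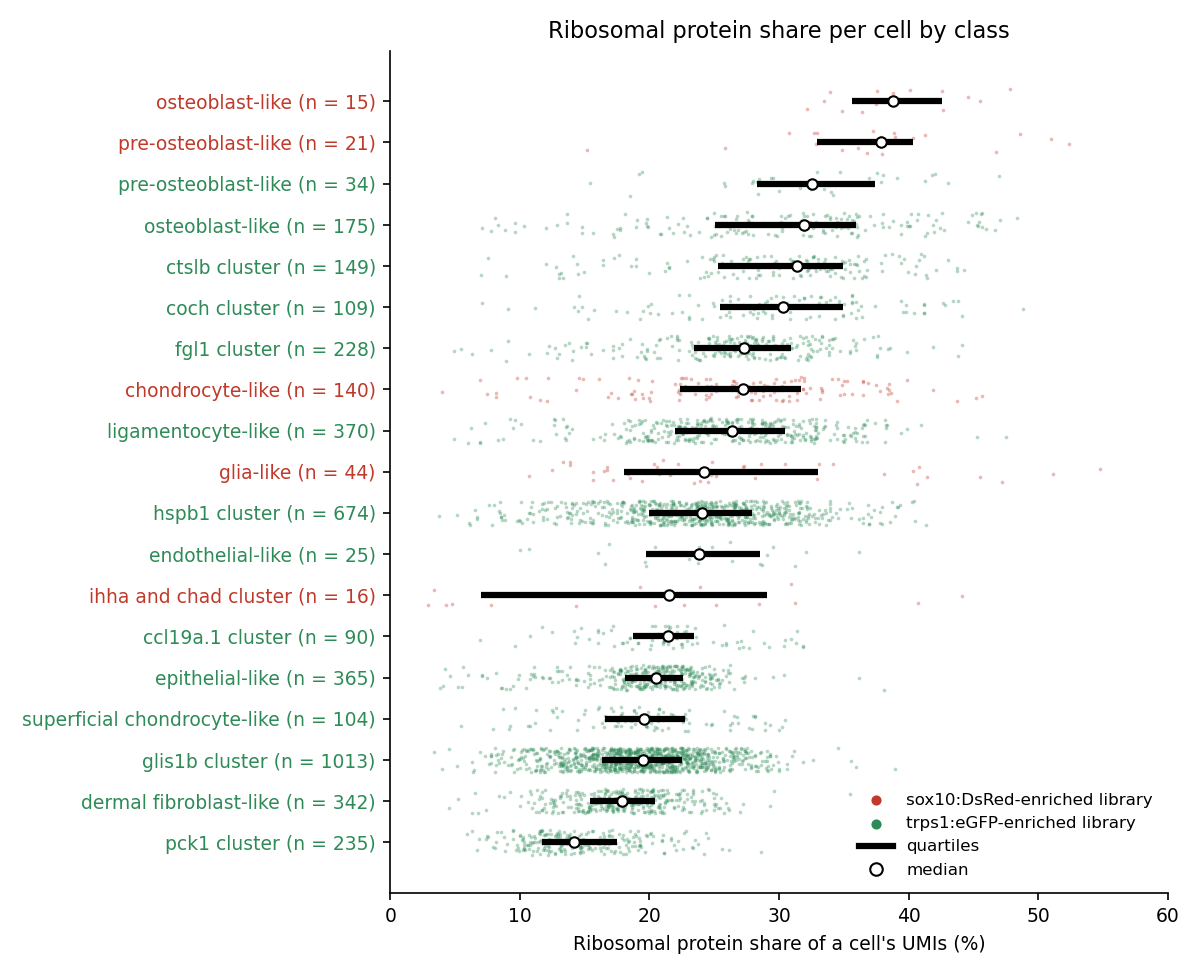
Share of each cell's UMIs on ribosomal protein genes, in percent, by class and library (points: cells; black bars: quartiles; white circles: medians), ordered by the median. Medians run from 14.2% in the *pck1* cluster to 38.8% in osteoblast-like cells of the *sox10:DsRed*-enriched library, and single classes spread far more widely than the distance between neighbouring medians.

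Cells of 1 class varied much more than counting allows. The SD of the share over cells ran from 4.20 percentage points in the *pck1* cluster to 13.2 in the *ihha* and *chad* cluster, whereas UMI sampling alone would give 0.578 to 1.18 points across the 19 classes. The classes differed in depth, with a median of 1420 to 9616 UMIs per cell. After each cell was thinned to 1000 UMIs, the median in the *trps1:eGFP*-enriched library was 14.1% in the *pck1* cluster and 32.0% in osteoblast-like cells, against 14.2% and 31.9% before. The median cell had a UMI for 76 to 81 of the 84 members in every class.

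Transcripts for the subunits stayed in a nearly fixed ratio while the total share moved. Summed over the cells of each class, the members of the large subunit had 1.39 to 1.45 UMIs for each UMI of the small subunit in the 14 classes of the *trps1:eGFP*-enriched library. The ratio was lowest in the *pck1* cluster and highest in epithelial-like cells. In the 5 classes of the *sox10:DsRed*-enriched library the ratio was 1.39 in osteoblast-like cells and 1.49 (1.47 to 1.51) in chondrocyte-like cells. The ratio thus spanned 1.04-fold and 1.07-fold, while the share spanned 2.22-fold and 1.65-fold.

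Across classes the share moved with the genes of translation elongation and against a list of genes induced by tissue dissociation, such as the immediate early genes *fosab* and *junbb*. In the *trps1:eGFP*-enriched library the 8 stress genes measured took 0.388% of UMIs in pre-osteoblast-like cells and 3.63% in the *pck1* cluster, the classes with the highest and lowest ribosomal protein share. Over its 14 classes Spearman's rho with the ribosomal protein share was -0.81 for the stress genes, 0.86 for the elongation factors, -0.57 for the mitochondrial share and 0.29 for the median UMIs per cell. Superficial chondrocyte-like and epithelial-like cells lay off that trend, with low ribosomal protein shares beside stress shares of only 0.814% and 0.790%. These points share 1 library and a common total of UMIs, and the part of dissociation stress in the ribosomal protein share was not tested.

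The same directions were seen between the cells of 1 class. In each of the 15 classes of 34 or more cells, rho over cells was below 0 with the stress share (-0.61 to -0.34) and with the mitochondrial share (-0.66 to -0.15). It was above 0 with the elongation factors (0.49 to 0.78) and with total UMIs (0.13 to 0.57). Barcodes left out for having under 500 genes had lower shares, 20.03% in the *sox10:DsRed*-enriched library (n = 215) and 13.1% in the *trps1:eGFP*-enriched library (n = 899). Those over 5% mitochondrial RNA were at 3.39% (n = 4) and 7.03% (n = 157). These groups overlap: of the 157 barcodes only 15 had 500 to 2000 genes, and those 15 were at 9.20%.

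**Figure D3:**
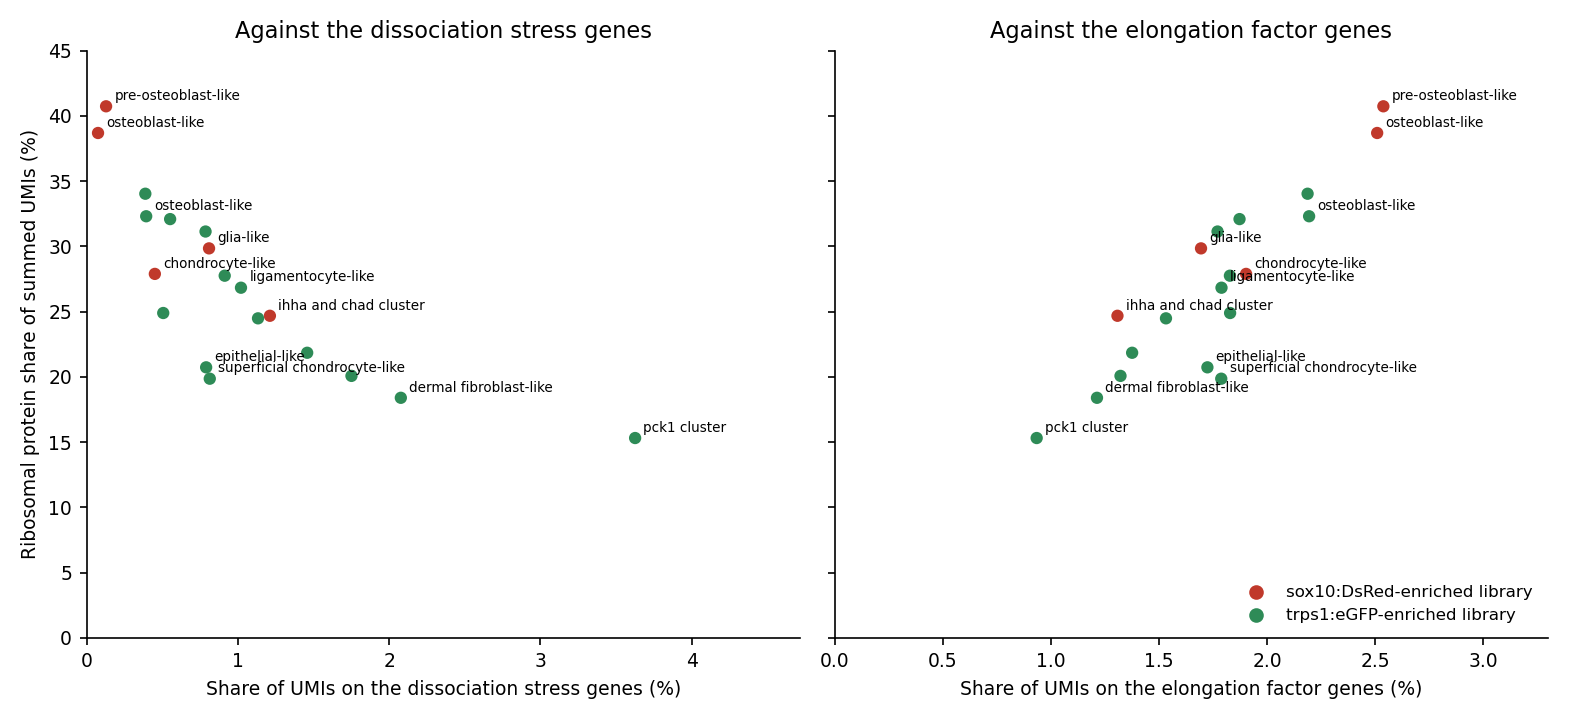
Share of summed UMIs on the ribosomal protein genes, in percent, against the share on 8 dissociation stress genes (left) and on the elongation factor genes (right), with 1 point per class. The *pck1* cluster, at 15.3%, has the highest stress share (3.63%) and the lowest elongation share (0.934%), and the bone-forming classes lie at the opposite end.

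Single members were then compared between classes. A gene was counted as measured at a mean of at least 50 CPM and as higher or lower at 1.5-fold, with 10 CPM added to both levels. Members past 1.5-fold are named where they were few, a choice made after their values were seen. A member departed from the others when its fold lay 1.5-fold or more from the median fold of the 82 measured members. These are rules of size and not tests, and every comparison against remaining joint cells shares most of its cells with the others.

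In osteoblast-lineage-like cells of the *trps1:eGFP*-enriched library (osteoblast-like and pre-osteoblast-like, 209 cells), 80 of 82 members lay above 1-fold against the rest of the joint. Of the 82 members, 27 (32.9%) were higher than in the remaining 3320 joint cells, where 14.4% of all 1419 measured genes were higher. Only *rpl7l1* was lower (1.22% of members), against 39.9% of all genes. The median member was 1.42-fold higher, whereas the median gene was at 0.781-fold. When CPM was taken over the UMIs outside the members, 69 were past 1.5-fold in place of 28. The members then do not share in their own total, but the folds of all genes in these cells rise. The share of all genes past 1.5-fold on that total is not given here.

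Only *rpl22l1* and *rpl7l1* departed from that common level. *rpl22l1*, a paralog of the RNA-binding large-subunit gene *rpl22*, was at 1110 CPM in osteoblast-lineage-like cells and 422 CPM in the rest, 2.59-fold higher and 1.83-fold above the median member. *rpl7l1*, a relative of *rpl7* known in humans from nuclear precursors of the large subunit, was at 52.4 CPM against 87.7 CPM, 0.638-fold, which is 0.450 of the median member. The stress genes moved the other way in these cells, with 8 of 8 lower and 0.393% of UMIs against 1.54%, and their part in the difference was not tested.

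Osteoblast-lineage-like cells of the *sox10:DsRed*-enriched library had still higher levels than those of the *trps1:eGFP*-enriched library. The median member was 1.23-fold higher in the 36 cells of the first than in the 209 of the second, and 79 of 82 members lay above 1-fold, while the median gene was at 1.09-fold. Just 2 members passed 1.5-fold, *rpl29* and *rps27l*, which is 2.44% of members beside 18% of all genes, and none was lower, beside 22.6%. With CPM over the UMIs outside the members 14 passed 1.5-fold, and no share of all genes is given on that total. No member departed from the common level. The stress genes took 0.0974% of UMIs in the first and 0.393% in the second, and this difference between 2 libraries cannot be told apart from the sorts. The mix of cells also differed, with 21 pre-osteoblast-like and 15 osteoblast-like cells in the first and 34 and 175 in the second. Its part in the folds was not tested. Within each class the member share was higher in the first, 40.7% against 34.0% in pre-osteoblast-like and 38.7% against 32.3% in osteoblast-like cells.

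Chondrocyte-like cells had lower levels than osteoblast-lineage-like cells of their own library. Of the 82 members, 24 (29.3%) were lower and none was higher, where 18.8% of all measured genes were lower and 48.9% higher. The median member was at 0.726-fold and the median gene at 1.46-fold. With the members taken out of the total 64 were past 1.5-fold, and no share of all genes is given on that total. *rps27l*, a paralog of the small-subunit gene *rps27.1* that p53 induces in mammals, was furthest below, with 118.9 CPM against 364.9 CPM (0.344-fold, 0.474 of the median member). *rpl7l1* departed upwards, at 72.8 CPM against 60.2 CPM, but on 30 and 16 UMIs. *rpl22l1* was at 1410 CPM in chondrocyte-like and 1558 CPM in osteoblast-lineage-like cells, while *rpl22* was at 1650 and 2600 CPM. All 7 measured stress genes were higher in chondrocyte-like cells (0.451% against 0.0974% of UMIs), and their part was not tested.

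Against the whole glia-like cluster the members of chondrocyte-like cells showed little common shift. The median member was at 0.942-fold, 1 member (1.22%) was higher and 4 (4.88%) were lower, among them *rps27l*, *rpl22* and *rps26l*, beside 28% and 35.8% of all genes. *rpl22l1* was the member that was higher, with 1410 CPM in chondrocyte-like and 548 CPM in glia-like cells, 2.54-fold and 2.70-fold above the median member. *rpl22* was at 1650 CPM against 2650 CPM (0.624-fold) over the whole cluster, and *rps27l* was at 118.9 CPM against 242 CPM on 19 glia-like UMIs. With only the 22 cells that carried glia markers 34 members passed 1.5-fold, 33 higher and 1 lower. The share of all genes past 1.5-fold is not given for these 22 cells, so that count has no background. The median member was then 1.43-fold higher in chondrocyte-like cells. The direction for the set therefore turned with the choice of cells, and *rpl22l1* stayed the furthest above the median member, 3.24-fold, on 8 UMIs, whereas *rpl22* was then at 1650 against 1598 CPM (1.03-fold). These marker-bearing cells gave 0.959% of UMIs to stress genes and 1.43% to mitochondrial genes, against 0.451% and 0.613% in chondrocyte-like cells, and the part of these shares was not tested.

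Ligamentocyte-like cells held all 82 members above 1-fold against the remaining joint cells, in a narrow band from 1.004-fold to 1.31-fold with a median of 1.17. None reached 1.5-fold in either direction, where 13.2% of all genes were higher and 13.5% lower. Dermal fibroblast-like cells were the mirror image, with all 82 members below 1-fold, from 0.613 to 0.902 with a median of 0.758. There 2 members (2.44%) passed 1.5-fold downwards, *rpl7l1* and *rps4x*, beside 11.3% of all genes, and none passed upwards, beside 19.2%. With CPM over the UMIs outside the members 17 passed 1.5-fold in place of 2, and no share of all genes is given on that total. The median gene was at 1.03-fold in the first comparison and 1.04-fold in the second. The stress share was 1.02% against 1.48% in ligamentocyte-like and 2.08% against 1.35% in dermal fibroblast-like cells, and its part was not tested.

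Superficial chondrocyte-like cells had 77 of 82 members below 1-fold, with a median of 0.825, while the median gene was at 1.20-fold. Only *rps27l* passed 1.5-fold, at 0.582-fold (65.2 CPM), which is 1.22% of members beside 19.4% of all genes lower and 35.4% higher. Here the stress share was lower than in the remaining cells, 0.814% against 1.45%, and the mitochondrial share was higher, 1.15% against 0.692%. Epithelial-like cells had a median member of 0.864-fold against the joint cells, close to the median gene at 0.892-fold. Of the members 3 (3.66%) were lower, *rpl7l1*, *rpl22* and *rps27.2*, beside 33.3% of all genes, and none was higher, beside 24.6%. *rpl7l1*, at 43.2 CPM against 84.4 CPM, was the only member to depart from the common level.

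**Figure D4:**
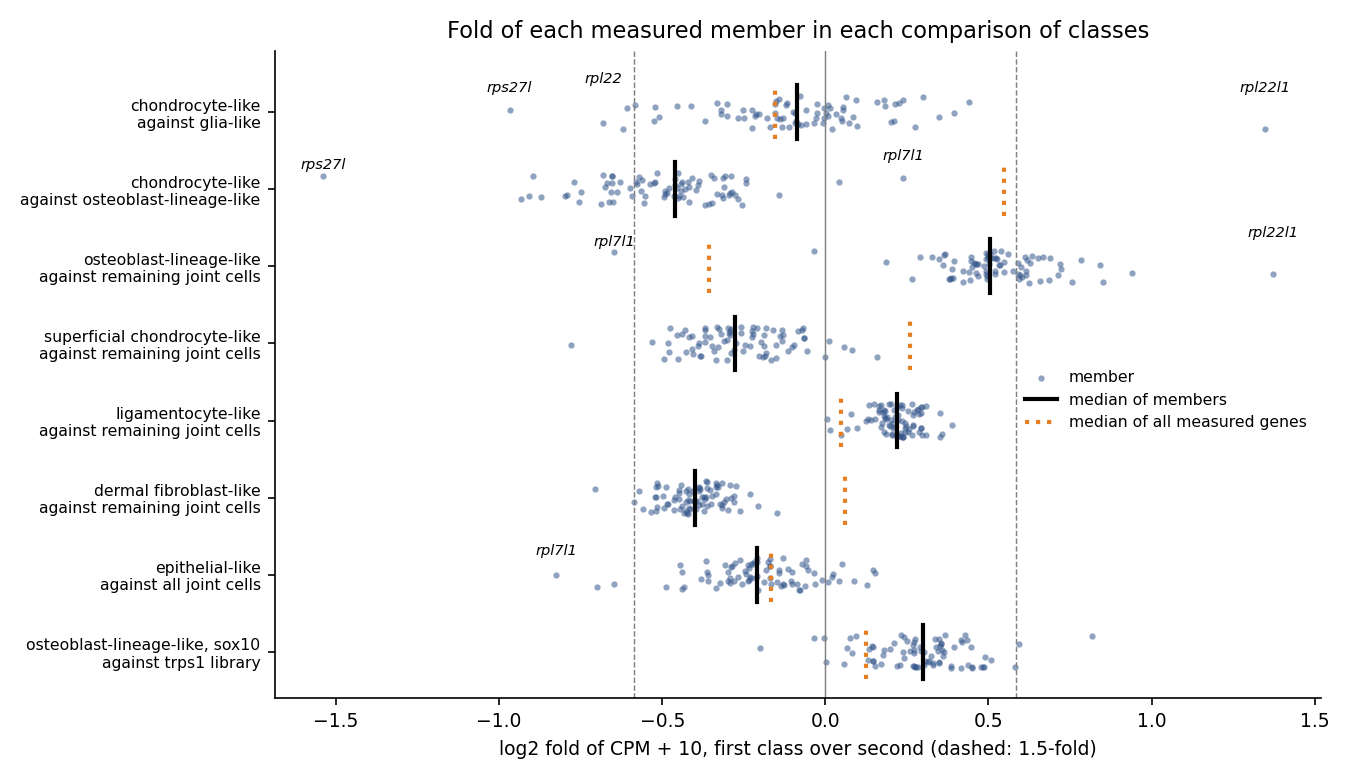
log2 fold of CPM (with 10 added) for each of the 82 measured members in the 8 comparisons, with the median of the members (black) and of all measured genes (orange, dotted) and with members that depart by 1.5-fold from the members' median named. In each comparison all but at most 3 members lie within 1.5-fold of the members' median. That median is 0.51 in osteoblast-lineage-like and -0.40 in dermal fibroblast-like cells against remaining joint cells. In chondrocyte-like cells against the whole, mixed glia-like cluster the common shift is small (median 0.942-fold), with 29 members above and 53 below 1-fold.

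The composition of the set was nearly the same in every class, apart from the paralogs. As a share of the ribosomal protein UMIs, 74 of the 82 members varied less than 1.5-fold over the 14 classes of the *trps1:eGFP*-enriched library, the median member varied 1.26-fold, and 3 varied more than 2-fold. These 3 were *rps27l* (10.3-fold), *rpl7l1* (7.43-fold) and *rpl22l1* (2.40-fold), all paralogs of a more abundant member.

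*rpl22l1* was highest relative to *rpl22* in chondrocyte-like and osteoblast-like cells. Among 18 classes with at least 20000 ribosomal protein UMIs, *rpl22l1* had 0.854 UMIs for each UMI of *rpl22* in chondrocyte-like cells (interval 0.764 to 0.956) and 0.743 in osteoblast-like and 0.455 in pre-osteoblast-like cells of the same library. In the *trps1:eGFP*-enriched library the ratio was 0.508 in osteoblast-like cells (0.475 to 0.544), 0.445 in epithelial-like cells, 0.326 in pre-osteoblast-like cells (0.277 to 0.383) and 0.168 in the *glis1b* cluster (0.157 to 0.179). The median class was at 0.272, and superficial chondrocyte-like cells, at 0.296, lay near it. In the mouse Rpl22 protein represses the *Rpl22l1* transcript, which is background here.

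*rplp2l* and *rplp2*, copies of another acidic stalk protein, showed a second such pattern. *rplp2l* exceeded *rplp2* in osteoblast-like cells of the *sox10:DsRed*-enriched library, with 1.56 UMIs per UMI (1.41 to 1.72). In those of the *trps1:eGFP*-enriched library the ratio was 1.03, with an interval on both sides of equality (0.992 to 1.07). The ratio was 0.643 in chondrocyte-like cells and lowest, 0.486 (0.473 to 0.499), in the *glis1b* cluster. In CPM *rplp2l* was at 6327 in osteoblast-like cells of the *sox10:DsRed*-enriched library and 2058 in the *glis1b* cluster, whereas *rplp2* was at 4067 and 4236.

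The *rps27* genes split into a major copy, a second copy and a rare one. *rps27.2* had 0.229 to 0.535 UMIs for each UMI of *rps27.1*, lowest in osteoblast-like cells of the *sox10:DsRed*-enriched library and highest in the *ccl19a.1* cluster. *rps27l* had 0.244 (0.205 to 0.289) in that same *ccl19a.1* cluster, 0.107 in endothelial-like cells and 0.0202 in pre-osteoblast-like cells of the *trps1:eGFP*-enriched library, with a median over classes of 0.0428. The *ccl19a.1* cluster, led by that chemokine gene and by the complement genes *c4* and *c6*, had 169 *rps27l* UMIs in 90 cells, or 499.6 CPM. It thus stood apart in this gene while its total share of 21.9% lay in the lower part of the order.

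Other paralogs varied less or were lopsided. *rps26l* had 0.650 to 1.15 UMIs for each UMI of *rps26*, lowest in dermal fibroblast-like cells. *rpl5a* and *rpl5b*, copies of a protein that carries the smallest rRNA into the large subunit, were near balance with a median ratio of 0.951, highest (1.55) in pre-osteoblast-like cells of the *sox10:DsRed*-enriched library. *rpl7l1* never exceeded 0.0445 UMIs per UMI of *rpl7*, a level reached in the *coch* cluster.

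**Figure D5:**
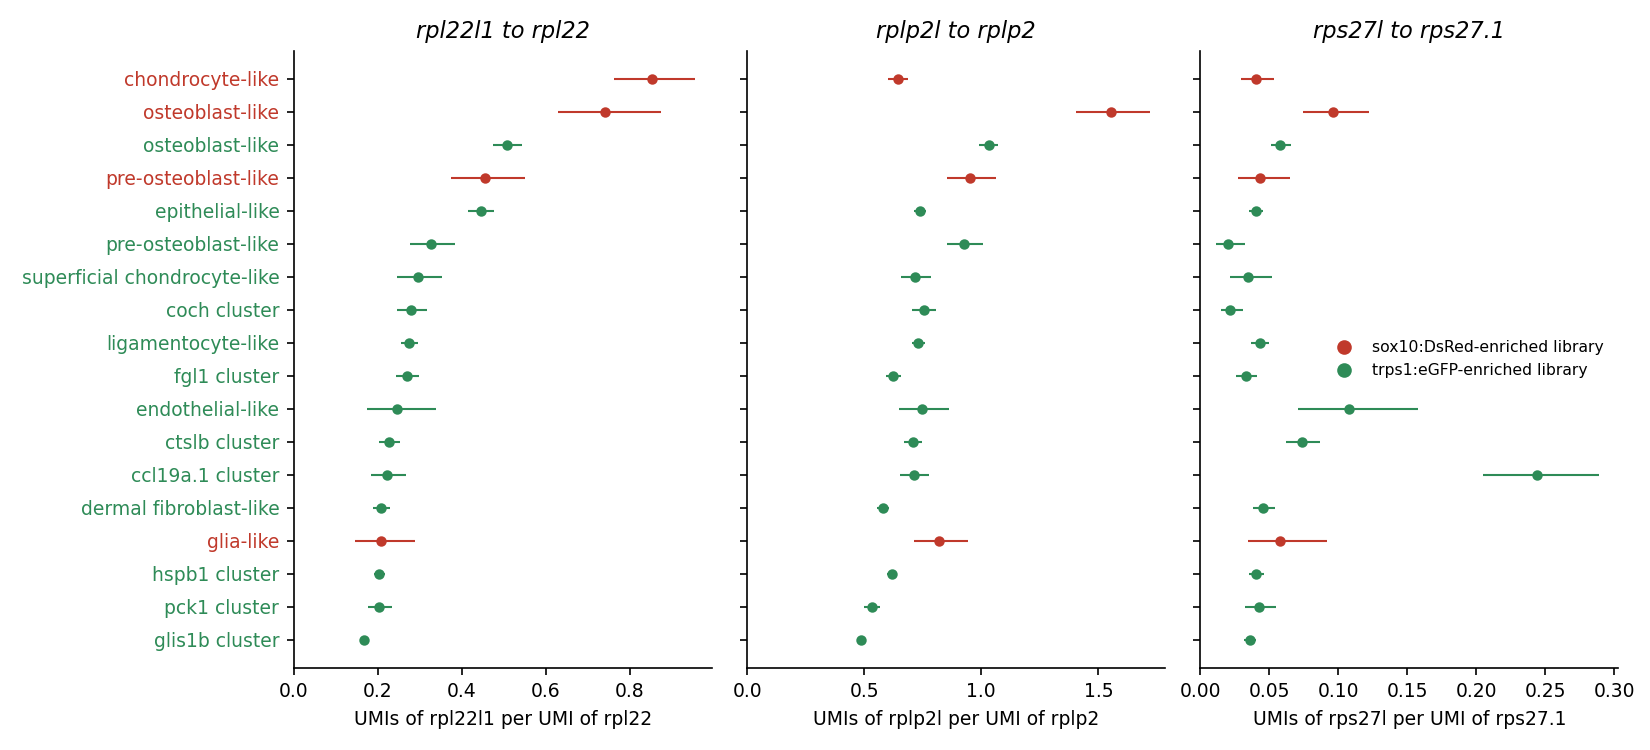
UMIs of *rpl22l1* per UMI of *rpl22*, of *rplp2l* per *rplp2* and of *rps27l* per *rps27.1* in 18 classes, coloured by library, with 95% intervals from the binomial share of the pair. The first ratio runs from 0.168 to 0.854 and the second from 0.486 to 1.56, and osteoblast-like cells are among the highest in both, whereas the third is highest (0.244) in the *ccl19a.1* cluster.

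Genes that work with the ribosome were read from lists. Of the 16 elongation factor genes 8 or 9 were measured in each comparison. Their median was close to that of the members in 5 comparisons: it was 1.39-fold in osteoblast-lineage-like cells of the *trps1:eGFP*-enriched library, 1.16-fold in ligamentocyte-like cells, 0.713-fold in dermal fibroblast-like cells, 0.776-fold in chondrocyte-like against osteoblast-lineage-like cells and 1.28-fold in osteoblast-lineage-like cells between the libraries. In the osteoblast-lineage-like cells of the *trps1:eGFP*-enriched library 2 of 8 were higher and none lower, beside 14.4% and 39.9% of all genes, namely *eef1g*, a subunit of the exchange factor for elongation factor 1, at 2069 against 1035 CPM, and *eef2b*, the translocase, at 1542 against 893 CPM. In 3 comparisons the elongation list and the members lay on opposite sides of 1-fold. The elongation median was 1.27-fold beside the members' 0.942 in chondrocyte-like cells against the whole, mixed glia-like cluster. It was 1.04-fold beside 0.864 in epithelial-like cells and 1.18-fold beside 0.825 in superficial chondrocyte-like cells. In the last of these *eif5a2*, a factor that relieves stalled ribosomes, was higher, at 317 against 143 CPM. It was the 1 gene of 8 that was higher, beside 35.4% of all genes, and none was lower, beside 19.4%. Against only the 22 glia-like cells that carried glia markers, the members' median was 1.43-fold, on the other side of 1-fold. The elongation median is not given for those cells, whose elongation share was 1.45% against 1.90% in chondrocyte-like cells.

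The initiation list split. Of 33 measured genes in osteoblast-lineage-like cells of the *trps1:eGFP*-enriched library, 3 were higher and 2 lower, beside the same 14.4% and 39.9% of all genes, with a median of 1.06-fold. *pabpc1b*, a poly(A)-binding protein, was at 707 against 327 CPM, and *eif3ea*, a subunit of initiation factor 3, at 376 against 203 CPM. *eif1b* went the other way, at 1009 against 2430 CPM, as did the helicase gene *eif4a2*, at 51.6 against 103.5 CPM. In superficial chondrocyte-like cells *eif4ebp3l*, a relative of the inhibitors that bind the cap-binding factor, was at 25.5 against 134 CPM, and in dermal fibroblast-like cells at 260 against 115 CPM.

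Ribosome biogenesis genes, which make and assemble rRNA, were measured for 11 to 14 of 55. Dermal fibroblast-like cells had 8 of 11 lower and none higher, beside 11.3% and 19.2% of all genes, with a median of 0.543-fold that was below that of the members. *npm1a*, the nucleolar chaperone nucleophosmin, was at 248 against 547 CPM and *wdr43*, a factor of small-subunit assembly, at 32.2 against 106.1 CPM. Epithelial-like cells had 7 of 12 lower and 1 higher, beside 33.3% and 24.6% of all genes. Ligamentocyte-like cells had 4 of 13 higher and none lower, beside 13.2% and 13.5%, among them *nop56*, a component of the particles that methylate rRNA, at 376 against 231 CPM. Osteoblast-lineage-like cells of the *trps1:eGFP*-enriched library had 2 of 13 higher, *myca* and *ddx21*, near the 14.4% of all genes, and 1 lower, *mycb*, at 313 against 1751 CPM, beside 39.9%. In other comparisons the biogenesis list and the members lay on opposite sides of 1-fold. Its median was 1.32-fold beside the members' 0.726 in chondrocyte-like against osteoblast-lineage-like cells, with 5 of 12 higher (48.9% of all genes). It was 0.718-fold beside 1.23 in osteoblast-lineage-like cells between the libraries, with 5 of 13 lower (22.6% of all genes). In chondrocyte-like cells against the whole, mixed glia-like cluster it was 1.21-fold beside 0.942. Mitochondrial ribosomal proteins, which serve a separate ribosome, were mostly too low to compare: none of 74 was measured in 7 of the 8 comparisons. In chondrocyte-like against glia-like cells 3 were measured, among them *mrps15* and *mrpl32*. They reached a mean of 50 CPM only in the comparison that included the glia-like cluster, which had 78476 UMIs. The filter thus favours genes that are high there, and no direction is read from them.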

How the data were processed

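The authors made the count matrices with Cell Ranger 3.0.0 on GRCz11, per the submitters' notes and the file headers, and deposited raw UMI counts for each barcode called as a cell, with no filter on genes or mitochondrial RNA. Barcodes with 500 to 2000 genes and at most 5% of UMIs on the 12 mitochondrial features were kept. They were clustered in Seurat 5.3.0 under R 4.3.3, the study's method in a later version (2000 variable features without the ribosomal protein genes, 38 dimensions, resolution 0.9), after epithelial-like and endothelial-like cells had been removed. A cluster was named when at least 3 markers were found in at least 5% of its cells and were 2-fold higher than elsewhere. A subcluster kept only a name of its parent's lineage, which left the *ihha* and *chad* cluster without a cell type name. Scrublet in scanpy 1.11.5 marked 1 of 462 and 0 of 4876 barcodes, too few for the caller to have worked, so no doublets were removed and leaving out the top 5% of scores was an alternative. The rebuilt names may differ from the study's.

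Shares are summed member UMIs over summed UMIs. Folds were taken on CPM of summed counts with 10 added, over genes with a mean of at least 50 CPM. With 1 library per sort there was no test. The text names the 10 members with most UMIs, up to 3 members a direction that depart by 1.5-fold from the members' median in a comparison, sets of paralogs, *rps19bp1*, *rack1*, and up to 2 genes a direction of each pathway list. The members and lists were chosen with earlier results of these data known. The symbols *fau*, *eif3l*, *hspa1b* and *zfp36a* of the lists matched no feature. No column was left out as another sample's. Some members and listed genes are not reported by name here. Sequences and coordinates were not used here.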

Additional observations from a re-analysis of the deposited data

How the results depend on the processing

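Chondrocyte-like and glia-like cells of the *sox10:DsRed*-enriched library were compared with classes of the *trps1:eGFP*-enriched library, 7 classes in all. Pre-osteoblast-like cells (34.0%) and the *pck1* cluster (15.3%), the extremes of the second library, were not among them. Osteoblast-like cells had the highest ribosomal protein share of these 7 classes under each of the 12 alternatives listed for it. Dermal fibroblast-like cells had the lowest in all but 1, the minimum of 200 genes, under which the glia-like cells were lowest. The order between classes of different libraries cannot be told apart from the sorts. Most shares moved by more than their narrow counting interval, 70 of 91 in all. With the ribosomal protein genes kept for clustering the share was 27.4% (chondrocyte-like) and 28.1% (glia-like). A minimum of 200 genes gave 27.15% (chondrocyte-like), 18.15% (glia-like), 31.8% (osteoblast-like), 19.6% (superficial chondrocyte-like), 26.4% (ligamentocyte-like), 18.17% (dermal fibroblast-like) and 20.6% (epithelial-like). A mitochondrial limit of 10% gave 27.6% (chondrocyte-like), 30.2% (glia-like), 32.2% (osteoblast-like), 20.2% (superficial chondrocyte-like), 26.7% (ligamentocyte-like) and 18.3% (dermal fibroblast-like). Clustering on 20 dimensions gave 27.7% (chondrocyte-like), 31.9% (osteoblast-like), 19.6% (superficial chondrocyte-like) and 18.3% (dermal fibroblast-like). A resolution of 0.6 gave 27.6% (chondrocyte-like), 32.04% (osteoblast-like), 20.1% (superficial chondrocyte-like), 26.9% (ligamentocyte-like) and 18.3% (dermal fibroblast-like). Keeping epithelial-like and endothelial-like cells in the clustering gave 27.6% (chondrocyte-like), 30.4% (glia-like), 32.2% (osteoblast-like), 19.6% (superficial chondrocyte-like), 26.6% (ligamentocyte-like) and 18.2% (dermal fibroblast-like). Leaving out the top 5% of Scrublet scores gave 27.5% (chondrocyte-like), 23.3% (glia-like), 32.5% (osteoblast-like), 19.7% (superficial chondrocyte-like), 26.9% (ligamentocyte-like) and 18.2% (dermal fibroblast-like). Thinning to 1000 UMIs gave 26.7% (chondrocyte-like), 26.4% (glia-like), 30.4% (osteoblast-like), 19.6% (superficial chondrocyte-like), 25.9% (ligamentocyte-like), 18.01% (dermal fibroblast-like) and 19.7% (epithelial-like). Thinned cells weigh equally, unlike in the summed shares, and these values lie close to the averages over cells given below, which use no thinning. Taking mitochondrial UMIs out of the total gave 28.1% (chondrocyte-like), 32.5% (osteoblast-like), 20.1% (superficial chondrocyte-like), 27% (ligamentocyte-like), 18.5% (dermal fibroblast-like) and 20.8% (epithelial-like). Taking the 20 most abundant other genes out of the total gave 34.7% (chondrocyte-like), 36.6% (glia-like), 46.8% (osteoblast-like), 24.7% (superficial chondrocyte-like), 33.8% (ligamentocyte-like), 23.6% (dermal fibroblast-like) and 28.8% (epithelial-like). Averaging over cells gave 26.6% (chondrocyte-like), 26.3% (glia-like), 30.4% (osteoblast-like), 19.5% (superficial chondrocyte-like), 25.9% (ligamentocyte-like), 17.9% (dermal fibroblast-like) and 19.8% (epithelial-like). Cells of 2000 to 4000 UMIs, chosen after seeing the data, gave 27.4% (chondrocyte-like), 30.04% (osteoblast-like), 20.4% (superficial chondrocyte-like), 26.5% (ligamentocyte-like), 17.5% (dermal fibroblast-like) and 18.6% (epithelial-like).

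Counts of members past 1.5-fold moved in 15 of 41 alternatives and counts of departing members in 6 of 41. With only glia-like cells of at least 5 glia marker UMIs, an alternative chosen after seeing the data, the glia-like share was 19.5%. In their comparison with chondrocyte-like cells 34 members were past 1.5-fold and 10 departed, with no share of all genes given beside them. At 2-fold, 1 member was past the threshold in each of the comparisons of chondrocyte-like with glia-like cells, of chondrocyte-like with osteoblast-lineage-like cells and of osteoblast-lineage-like with remaining cells, and 0 in the other 5, and the same 3 comparisons each had 1 departing member while epithelial-like cells had 0. No share of all genes is given at 2-fold, so these counts have no background. With CPM over the UMIs outside the members, 64 members were past 1.5-fold in chondrocyte-like against osteoblast-lineage-like cells and 14 between the libraries. Against remaining cells, 69 were past it in osteoblast-lineage-like, 2 in superficial chondrocyte-like and 17 in dermal fibroblast-like cells. The share of all genes past 1.5-fold on that total is not given for these counts. Keeping the ribosomal protein genes for clustering left 1 member past 1.5-fold in dermal fibroblast-like cells and 1 between the libraries. No share of all genes is given for that clustering. A minimum of 10 CPM gave 1 departing member in superficial chondrocyte-like cells. The causes of these moves were not tested.

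No paired analysis was possible because each sort gave 1 library. That single library per sort, the small numbers of bone-forming cells in the *sox10:DsRed*-enriched library (36) and the low counts of *rps27l* and *rpl7l1* set the limits of these data.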
